A study of Mus musculus with 6 samples.

Results

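The Krüppel-like factors (KLFs) with a known role in the making of fat cells were followed here through the loss of Nelfb, a subunit of the negative elongation factor that holds RNA polymerase II shortly after the start of transcription. The members were the rows of the deposited gene table that carry the symbols of 10 listed genes, and all 10 were found among the 17924 genes of the table. They comprised 7 factors known mainly as activators of adipogenesis (Klf4, Klf5, Klf6, Klf9, Klf11, Klf13 and Klf15) and 3 known as repressors (Klf2, Klf3 and Klf7). RNA-seq was performed on dermal fibroblasts of newborn mice of C57BL/6J background after 14 days in adipocyte differentiation medium, with 3 biological replicates per genotype. All libraries came from Pdgfra-Cre+ animals: CTL cells had at most 1 floxed allele (Nelfb fl/wt or wt/wt), and in Nelfb-/- cells both alleles were floxed (Nelfb fl/fl). Which CTL library had which of these genotypes is not given in the sources used here. Pdgfra-Cre acts in the lineage of Pdgfra-expressing cells, and other cells of the dermis that grow in such a culture keep Nelfb.

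KLFs are transcription factors with zinc fingers at the carboxyl end that bind CACCC and GC-rich boxes, and in fat cells they act in a chain around Pparg and the C/EBP factors. Klf4 acts early on Cebpb together with Krox20 (Egr2), Klf5 is induced by C/EBP factors and acts on the Pparg promoter, and Klf9 and Klf15 act later, with Klf15 also driving the glucose transporter Slc2a4 and enzymes of amino acid breakdown. On the other side, Klf2 represses the Pparg promoter, Klf3 represses Cebpa through the corepressor CtBP, and Klf7 blocks differentiation when overexpressed.

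Levels are given in CPM, reads per 1000000 (1 M) of the library, at a depth of 17.2 to 29.4 M reads. Where 3 levels are listed for a genotype, they are those of replicates 1, 2 and 3 in this order. Differences between genotypes are log2 fold changes of Nelfb-/- relative to CTL ± their standard error (SE), from limma fitted on log2(reads + 1) over 16252 genes, and a gene passed when its adjusted p did not exceed 0.05 and it differed 2-fold or more. With 3 libraries in each group, an exact permutation test of 1 gene could not give a two-sided p below 0.1. Nelfb itself had 17.3 to 22.3 CPM in CTL and 3.90 to 5.55 CPM in Nelfb-/- libraries. CTL replicate 3 and Nelfb-/- replicate 1 stood apart from the other libraries of their groups on the first 2 principal components, which held 59.9% and 27.7% of the variance. The main results are therefore also given without these 2 libraries, a choice made after the data were seen; on the first component each was the library of its group nearest to the other group, so that leaving them out widens the distance between the groups, and 27.1% of all genes then passed (9.37% lower and 17.7% higher).

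Of the 10 KLFs, 1 passed the threshold, Klf15, which was downregulated in Nelfb-/- cells, while 11.2% of all genes tested passed. Of the 7 activators, 1 was downregulated and 0 were upregulated, whereas 3.64% of all genes tested were downregulated and 7.58% were upregulated. Of the 3 repressors, 0 passed in limma in either direction. At an unadjusted p of 0.05, limma gave 4 activators as lower (Klf5, Klf9, Klf11 and Klf15), 0 activators as higher and 0 repressors in either direction. By this rule 12.9% of all genes were lower and 19.6% higher. The median log2 fold change was -0.66 over the 7 activators and 0.13 over the 3 repressors, and it was 0.068 over all genes tested. The Nelfb-/- libraries all lay below the CTL libraries at 2 of the 7 activators, Klf5 and Klf15, which compares with 16.1% of all genes, and at 0 repressors (38.1% of all genes had groups that did not overlap in either direction). They all lay above the CTL libraries at 0 of the 10 KLFs, against 22.0% of all genes.

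**Figure D1:**
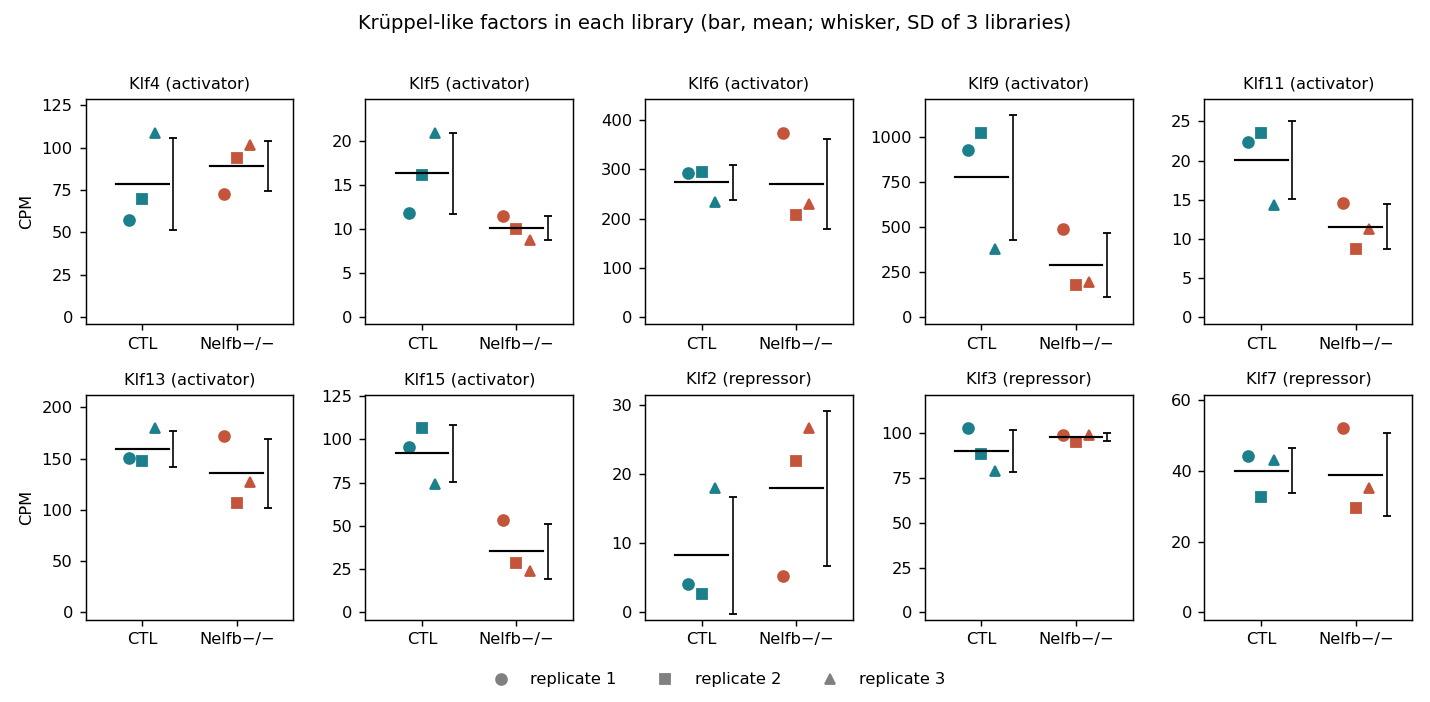
CPM of each of the 10 KLFs in the 6 libraries (y axis, linear; CTL and Nelfb-/- on the x axis; point shapes mark the replicate numbers, bars the mean and whiskers the SD of 3 libraries). The 3 Nelfb-/- libraries lie below the 3 CTL libraries at Klf5 and Klf15, and the groups overlap at the other 8 genes.

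The promoter sequences of Klf15, Klf9 and Klf2 are shown because these genes had the strongest fitted differences in each direction. Promoters of 9 of the 10 KLFs were matched by symbol to the RefSeq sequences on GRCm38.p6, without Klf5. The bases before the transcript start are printed on the plus strand, with capitals for CACCC boxes (CACCC, or GGGTG on the other strand) and GC boxes (GGGCGG, or CCGCCC on the other strand). The Klf15 stretch lies at chr6:90462326-90462575, that of Klf9 at chr19:23140976-23141225 and that of Klf2 at chr8:72318812-72319032.
Klf15: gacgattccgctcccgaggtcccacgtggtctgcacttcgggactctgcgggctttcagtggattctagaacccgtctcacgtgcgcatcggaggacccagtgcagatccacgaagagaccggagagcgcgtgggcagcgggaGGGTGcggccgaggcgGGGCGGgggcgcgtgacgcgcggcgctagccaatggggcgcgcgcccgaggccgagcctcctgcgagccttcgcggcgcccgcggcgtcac
Klf9: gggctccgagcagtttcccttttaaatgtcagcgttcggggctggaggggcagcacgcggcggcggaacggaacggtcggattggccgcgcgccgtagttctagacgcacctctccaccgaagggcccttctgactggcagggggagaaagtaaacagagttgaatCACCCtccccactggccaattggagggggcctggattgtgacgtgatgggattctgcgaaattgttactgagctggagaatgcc
Klf2: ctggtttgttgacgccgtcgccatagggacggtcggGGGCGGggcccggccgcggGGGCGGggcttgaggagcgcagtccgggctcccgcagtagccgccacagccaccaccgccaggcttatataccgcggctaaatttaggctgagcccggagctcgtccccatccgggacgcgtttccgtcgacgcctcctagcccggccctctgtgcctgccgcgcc
The Klf15 stretch held 1 CACCC box and 1 GC box, that of Klf9 held 1 CACCC box and 0 GC boxes, and that of Klf2 held 0 CACCC boxes and 2 GC boxes. The Klf2 stretch has 221 bases, since the annotated transcript starts before the RefSeq start. In the 250 bases before the RefSeq start, counted on both strands and with overlaps, a CACCC box was found at 6 of the 9 KLFs and a GC box at 8 of 9. Over all 32851 promoters of the RefSeq table, 52.0% held a CACCC box and 32.7% a GC box in the same window. The letters TATAAA (12.4% of all promoters) and TGTTCT, part of the element of the glucocorticoid receptor (16.1%), were found at 0 of the 9 KLFs on either strand. Elements outside these 250 bases were not searched, and control by the receptor was not tested. The window of the KLFs held between 59.2% and 78.4% G or C, above the median of 52.4% over all promoters.

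Klf15 (ENSMUSG00000030087, chromosome 6 from 90462576 to 90475238 on GRCm38) showed CTL levels of 95.3, 106 and 74.1 CPM and Nelfb-/- levels of 53.5, 28.5 and 24.2 CPM. The groups did not overlap, with Nelfb-/- replicate 1 and CTL replicate 3 nearest to each other. Klf15 was 2.73-fold lower in Nelfb-/- cells, at -1.45 ± 0.32 (log2 fold change ± SE; adjusted p in limma, 0.029). Without CTL replicate 3 and Nelfb-/- replicate 1 its log2 fold change was -1.94 (adjusted p in limma, 7.4e-05). Leaving out 1 library at a time gave values from -1.79 to -1.22, and Klf15 no longer passed once CTL replicate 1, CTL replicate 2, Nelfb-/- replicate 2 or Nelfb-/- replicate 3 was removed (adjusted p in limma from 0.094 to 0.11).

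Klf9 (ENSMUSG00000033863, chromosome 19 from 23141226 to 23168134), which acts with C/EBPα on the Pparg promoter late in adipogenesis, showed CTL levels of 924, 1023 and 379 CPM and Nelfb-/- levels of 490, 175 and 194 CPM. CTL replicate 3 was thus below Nelfb-/- replicate 1, and the other libraries were separated by genotype. The log2 fold change of -1.48 was close to that of Klf15, but its SE was 0.53 and it did not pass (adjusted p in limma, 0.11). Without CTL replicate 3 it passed with -1.93 (adjusted p in limma, 0.041), and it also passed without Nelfb-/- replicate 1 with -1.95 (adjusted p in limma, 0.041). Without both of these libraries it was -2.40 (adjusted p in limma, 3.3e-05). Without any 1 of the other 4 libraries, Klf9 ranged from -1.29 to -1.20 and did not pass.

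Klf11 (ENSMUSG00000020653, chromosome 12 from 24651274 to 24662789), which takes part in the thermogenic gene program of fat cells under Pparg agonists, showed CTL levels of 22.3, 23.6 and 14.3 CPM and Nelfb-/- levels of 14.5, 8.73 and 11.3 CPM. CTL replicate 3 and Nelfb-/- replicate 1 were nearly level, and the log2 fold change was -0.80 (SE 0.28; adjusted p in limma, 0.10). Without CTL replicate 3 it was -1.02 and passed (adjusted p in limma, 0.038), and without this library and Nelfb-/- replicate 1 it was -1.20 (adjusted p in limma, 0.0011). The other fits without 1 library gave -0.98 to -0.61 for Klf11, and it did not pass (adjusted p in limma, 0.063 to 0.28). From the highest to the lowest, the 6 libraries stood in the same order for Klf9 and Klf11, namely CTL replicates 2 and 1, Nelfb-/- replicate 1, CTL replicate 3, and Nelfb-/- replicates 3 and 2. This order was shared by 230 of all genes tested (1.42%).

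Klf5 (ENSMUSG00000005148, chromosome 14 from 99298691 to 99315036) showed CTL levels of 11.9, 16.1 and 21.0 CPM and Nelfb-/- levels of 11.5, 10.01 and 8.77 CPM. The groups did not overlap, although CTL replicate 1 lay just above Nelfb-/- replicate 1. Here CTL replicate 3 was the highest library, unlike at Klf9, Klf11 and Klf15. The log2 fold change was -0.66 (SE 0.25; adjusted p in limma, 0.12), and fits without 1 library gave -0.87 to -0.46.

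The other 3 activators had overlapping groups and did not pass. Klf13 (ENSMUSG00000052040, chromosome 7 from 63886351 to 63938915), an activator of Pparg, showed CTL levels of 150, 148 and 180 CPM and Nelfb-/- levels of 172, 107 and 127 CPM. Its log2 fold change was -0.25, with a 95% interval from -0.74 to 0.24 (adjusted p in limma, 0.44). Klf6 (ENSMUSG00000000078, chromosome 13 from 5861482 to 5870394), which represses the preadipocyte gene Dlk1, showed CTL levels of 294, 295 and 233 CPM and Nelfb-/- levels of 375, 207 and 229 CPM. Nelfb-/- replicate 1 was the highest and replicate 2 the lowest library, and the log2 fold change was -0.060 with an interval from -0.67 to 0.55 (adjusted p in limma, 0.90). Klf4 (ENSMUSG00000003032, chromosome 4 from 55527143 to 55532466) showed CTL levels of 57.1, 69.7 and 109 CPM and Nelfb-/- levels of 72.7, 93.6 and 101 CPM. It was the 1 activator with a positive log2 fold change, 0.22, with an interval from -0.41 to 0.86 (adjusted p in limma, 0.60). Without CTL replicate 3 and Nelfb-/- replicate 1, Klf4 was at 0.63, Klf5 at -0.56, Klf6 at -0.43 and Klf13 at -0.35 on the log2 scale. These 4 differences had adjusted p in limma of 0.0044, 0.040, 0.0067 and 0.027 and were all under 2-fold. The share of all genes with such adjusted p in this fit, with no fold limit, is not given here. The 4 values therefore have no background beside them.

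The repressor Klf2 (ENSMUSG00000055148, chromosome 8 from 72319033 to 72321656) was the most variable of the 10 genes within the groups. It showed CTL levels of 4.15, 2.71 and 18.0 CPM and Nelfb-/- levels of 5.26, 21.9 and 26.6 CPM. CTL replicate 3 and Nelfb-/- replicates 2 and 3 were thus high, and the other 3 libraries were low. Its log2 fold change of 1.30 had an SE of 0.87 and a 95% interval from -0.79 to 3.39 (adjusted p in limma, 0.35). Without CTL replicate 3 it was 2.10 (adjusted p in limma, 0.097), without Nelfb-/- replicate 1 it was 2.03 (adjusted p in limma, 0.13), and without both libraries it was 2.83 and passed (adjusted p in limma, 2.2e-04). Leaving out CTL replicate 1, CTL replicate 2, Nelfb-/- replicate 2 or Nelfb-/- replicate 3 gave lower values, from 0.75 to 1.05 (adjusted p in limma, 0.60 to 0.69). The libraries stood in the same order by Klf2 as by the summed level of 10 markers of preadipocytes and fibroblasts, which came to 5221, 4514 and 17293 CPM in CTL libraries and to 9116, 31888 and 34325 CPM in those of Nelfb-/- cells. This order was that of 211 of all genes tested (1.3%). The 3 collagen genes Col1a1, Col1a2 and Col3a1 made up 75.4% to 90.5% of the sum, and without them it came to 1214, 1104 and 1927 CPM in CTL libraries and to 2243, 3323 and 3260 CPM in those of Nelfb-/- cells, which is another order. In bulk RNA, fewer cells of a type and less RNA per cell cannot be told apart, and the part of these cells in the level of Klf2 was not tested. The SD of the log2 values within groups was 1.35 for Klf2 and 0.80 for Klf9, where the median was 0.33 over all genes tested.

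By contrast, Klf3 (ENSMUSG00000029178, chromosome 5 from 64803388 to 64832901) was the least variable of the 10 genes, with a within-group SD of 0.14. It showed CTL levels of 103, 88.3 and 79.1 CPM and Nelfb-/- levels of 99.2, 95.3 and 98.7 CPM. Its log2 fold change was 0.13 (SE 0.14; adjusted p in limma, 0.57), with a 95% interval from -0.21 to 0.46. Klf7 (ENSMUSG00000025959, chromosome 1 from 64029447 to 64122282) showed CTL levels of 44.2, 32.6 and 43.0 CPM and Nelfb-/- levels of 52.0, 29.5 and 35.2 CPM, a log2 fold change of -0.067 with an interval from -0.65 to 0.52 (adjusted p in limma, 0.88). The groups overlapped at all 3 repressors. Genes on the opposite strand overlap Klf3, Klf7 and Klf13. Gm20033 over Klf3 and Gm27252 over Klf13 had at most 3.76 and 0.759 CPM in any library, and E030018B13Rik over Klf13 and Gm13748 and Gm26649 over Klf7 were not analysed here. Whether the counting used strand is not given in the sources used here, so that reads from such pairs cannot be told apart.

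**Figure D2:**
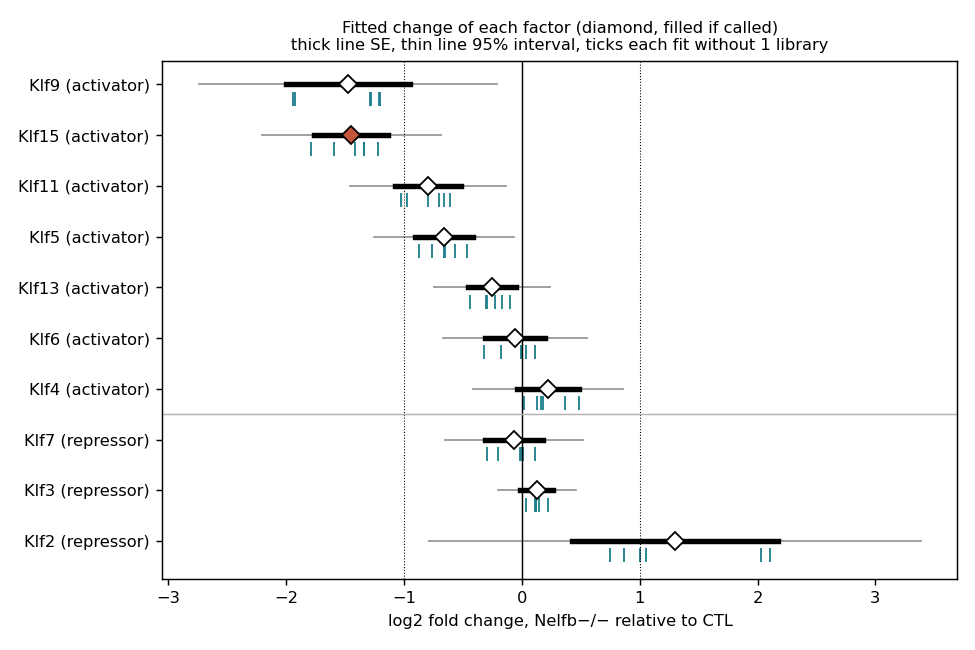
Log2 fold change of Nelfb-/- relative to CTL (x axis) for each KLF (rows, activators above the line and repressors below), with the SE as a thick line, the 95% interval as a thin line and a tick for each fit without 1 library. Klf15 is the filled diamond, past an adjusted p of 0.05 and 2-fold, and Klf9 lies at -1.48 with a wider interval.

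The levels of different KLFs were compared per length, as CPM per kb of the exons of each gene. In CTL cells Klf9 had the highest mean, 161 ± 72.1 CPM per kb (SD, n = 3), followed by Klf6 with 62.4 ± 8.11, Klf15 with 32.9 ± 5.87, Klf4 with 25.8 ± 8.86 and Klf13 with 21.1 ± 2.35. Klf3 (8.01 ± 1.06), Klf7 (4.91 ± 0.781), Klf11 (4.62 ± 1.16), Klf2 (4.48 ± 4.57) and Klf5 (3.14 ± 0.877) had the lower levels in CPM per kb. The ranges over the CTL libraries did not overlap between Klf9 and Klf6, Klf6 and Klf15, Klf13 and Klf3, or Klf3 and Klf7, and the other neighbours in this order overlapped. With the longest transcript of each gene in place of all its exons, the CTL mean was 17.2 CPM per kb for Klf3 and 4.87 CPM per kb for Klf5.

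In Nelfb-/- cells the order at the top was Klf6 with 61.6 ± 20.7 CPM per kb (SD, n = 3), Klf9 with 59.5 ± 36.7 and Klf4 with 29.3 ± 4.86, and the ranges of Klf6 and Klf9 overlapped. Klf15 had 12.7 ± 5.68 CPM per kb and Klf2 had 9.71 ± 6.08. The range of Klf13 overlapped that of Klf15, although Klf13 was the higher of both in 3 of 3 Nelfb-/- libraries. The ranges of Klf15 and Klf2 and of Klf2 and Klf3 also overlapped, and Klf15 was above Klf2 in 1 of the 3 Nelfb-/- libraries, replicate 1. As a share of the summed level of the 10 KLFs per length, Klf9 held 53.9%, 55.6% and 31.8% in CTL and 36.8%, 21.9% and 22.0% in Nelfb-/- libraries, so that CTL replicate 3 was below Nelfb-/- replicate 1. The share of Klf15 was 10.1% and 5.93% on average. The share of Klf2 was 0.631%, 0.384% and 3.94% in CTL and 1.03%, 7.11% and 7.88% in Nelfb-/- libraries, and that of CTL replicate 3 thus exceeded that of Nelfb-/- replicate 1. Per length, the level of Klf9 was 85.4, 145 and 8.08 times that of Klf2 in CTL replicates 1, 2 and 3 and 35.7, 3.07 and 2.79 times in Nelfb-/- replicates 1, 2 and 3. This ratio was higher in CTL replicates 1 and 2 than in any Nelfb-/- library, and that of CTL replicate 3 lay within the Nelfb-/- range.

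**Figure D3:**
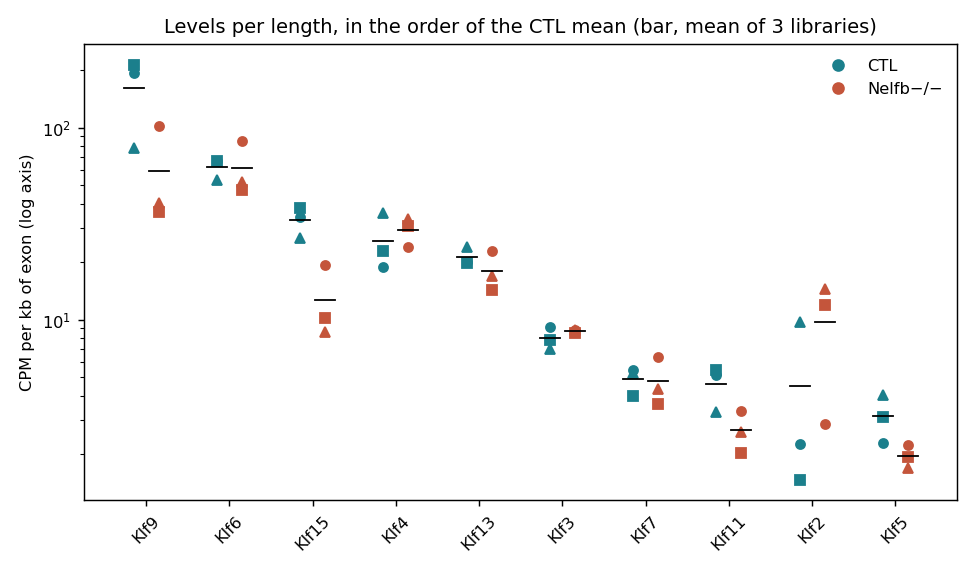
CPM per kb of exon (y axis, log scale) of the 10 KLFs in each CTL and Nelfb-/- library, ordered by the CTL mean (bars, mean of 3 libraries; point shapes mark the replicate numbers as in the plot of CPM by library). Klf9 leads in CTL with a mean of 161 CPM per kb, and its mean in Nelfb-/- libraries, 59.5, is near that of Klf6, 61.6.

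Of a list of 16 factors that act upstream of the KLFs or together with them, 0 passed the threshold in limma, with 3 lower and 1 higher at an unadjusted p of 0.05 (12.9% and 19.6% of all genes) and a median log2 fold change of -0.13. The 3 lower were Egr2, Pparg (log2 fold change -0.51) and Cebpb (-0.70), and the higher was Fbxw7 (0.45). Krox20 (Egr2), the partner of Klf4 at Cebpb, showed CTL levels of 31.1, 31.9 and 87.0 CPM and Nelfb-/- levels of 15.2, 24.7 and 20.6 CPM (log2 fold change -1.16; adjusted p in limma, 0.12). Ctbp2, a corepressor that Klf3 recruits, had a log2 fold change of 0.31 (adjusted p in limma, 0.18), and the related Ctbp1 one of 0.085 (adjusted p in limma, 0.77).

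Among 16 genes described as targets of KLFs in fat cells, 15 were tested, and Ucp1 was not analysed here. Of these, 4 were downregulated and 1 was upregulated past the threshold (3.64% and 7.58% of all genes), and their median log2 fold change was -0.97. The 4 downregulated genes are known as targets of Klf15 or as parts of the amino acid breakdown it drives. The part of Klf15 in their levels was not tested. The list shares Adipoq, Fabp4 and Lpl with the adipocyte markers below and Dlk1 with those of preadipocytes. It shares Pparg, Cebpa and Cebpb with the factors above. Adipoq, Fabp4 and Lpl did not pass (log2 fold change -1.07, -1.04 and -0.50), nor did Fasn (0.27). Slc2a4, the insulin-responsive glucose transporter, showed CTL levels of 112, 99.5 and 155 CPM and Nelfb-/- levels of 22.6, 34.1 and 33.3 CPM (log2 fold change -2.02, SE 0.24; adjusted p in limma, 0.0057). Bcat2, the first enzyme in the breakdown of branched-chain amino acids, had a log2 fold change of -1.95, and Bckdhb, a subunit of the next enzyme, one of -1.68 (adjusted p in limma, 0.012 and 0.0060). Pck1 also passed (adjusted p in limma, 0.0096), and encodes a key enzyme of gluconeogenesis and glyceroneogenesis, while Prodh, an enzyme of proline breakdown, had -0.10 (adjusted p in limma, 0.79). Dlk1, which Klf6 represses, was the upregulated gene (log2 fold change 3.37; adjusted p in limma, 0.017), and Klf6 itself did not pass. In the 6 fits without 1 library, Slc2a4 and Bckdhb passed in all 6, Pck1 in 5, Bcat2 in 4 and Dlk1 in 2 (without CTL replicate 3 or Nelfb-/- replicate 1). Without both of these libraries 8 of the targets were downregulated and 1 was upregulated, where 9.37% and 17.7% of all genes were.

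Klf9 and Klf15 are also known as targets of the glucocorticoid receptor, so that 13 other genes of the glucocorticoid response were set beside them. Of these, 0 passed the threshold in limma, 5 were lower and 0 higher at an unadjusted p of 0.05 (12.9% and 19.6% of all genes), and the median log2 fold change was -0.21. With no limit on the fold change, 3 passed an adjusted p of 0.05, all lower in Nelfb-/- cells, and by this rule 5.83% of all genes were lower and 9.96% higher. These were Angptl4 (-0.92), Errfi1 (-0.97) and Tsc22d3 (-0.66), with adjusted p in limma of 0.020, 0.017 and 0.043. All 3 lost this without CTL replicate 1, CTL replicate 2 or Nelfb-/- replicate 3, and Errfi1 and Tsc22d3 also without Nelfb-/- replicate 2, with adjusted p in limma of up to 0.10, 0.092 and 0.16 for Angptl4, Errfi1 and Tsc22d3. Tsc22d3 lost it as well with no abundance trend (adjusted p in limma, 0.055). Fkbp5, a strong target of the receptor, showed CTL levels of 388, 347 and 524 CPM and Nelfb-/- levels of 466, 404 and 453 CPM (log2 fold change 0.091; adjusted p in limma, 0.79). Pdk4 and Zbtb16 had the 6 libraries in the same order as Klf9. Pdk4, an inhibitor of glucose oxidation, showed CTL levels of 700, 762 and 131 CPM and Nelfb-/- levels of 192, 41.0 and 45.7 CPM, and its log2 fold change of -2.53 did not pass (SE 0.86; adjusted p in limma, 0.096). Like Klf9, Pdk4 passed without CTL replicate 3 (-3.36; adjusted p in limma, 0.026) and without Nelfb-/- replicate 1 (-3.25; adjusted p in limma, 0.046).

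Klf2, Klf4 and Klf6 also belong to the genes that cells switch on soon after a stimulus, and 14 other such immediate early genes had a median log2 fold change of 0.44. Of these, 3 were upregulated and 0 downregulated in limma (7.58% and 3.64% of all genes). At an unadjusted p of 0.05, 4 were higher, the 3 upregulated genes and Btg2 (0.89), and 0 were lower (19.6% and 12.9% of all genes). The 3 upregulated genes were Junb (1.41; adjusted p in limma, 0.037), Nr4a1 (1.48; adjusted p in limma, 0.0072) and Egr3 (1.78; adjusted p in limma, 0.031). The Nelfb-/- libraries all lay above the CTL libraries at 4 of the 14 genes, these 3 and Btg2, against 22.0% of all genes. They did not at Klf2, Klf4 or Klf6. Of the 3 upregulated genes, Nr4a1 passed in all 6 fits without 1 library, and Junb and Egr3 each in 1, that without CTL replicate 3. With no abundance trend 2 of the immediate early genes were upregulated, and Junb did not pass.

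Levels of cell type markers also differed between the libraries, and their counts below stand beside 7.58% of all genes upregulated and 3.64% downregulated. The summed level of 10 adipocyte markers came to 40948, 37901 and 26089 CPM in CTL libraries and to 18007, 26676 and 22765 CPM in those of Nelfb-/- cells, so that Nelfb-/- replicate 1, with the most Klf9 and Klf15 of its group, had the least. Fabp4 and Lpl made up 62.0% to 72.0% of this sum. The mean of log2(reads + 1) over the same 10 markers, in which each counts alike, was 14.10, 14.28 and 13.83 in CTL and 13.67, 14.33 and 14.14 in Nelfb-/- libraries, and here Nelfb-/- replicate 2 was the highest library. Lep had the largest difference of these markers and so weighs most on how this mean differs between the groups. It showed CTL levels of 0.180, 0.373 and 2.04 CPM and Nelfb-/- levels of 10.3, 32.4 and 33.0 CPM (log2 fold change 5.26). Of the 10 adipocyte markers, 7 had a negative log2 fold change and 3 a positive one, with a median of -0.60. Of these markers, 1 was downregulated (Adig) and 1 upregulated (Lep). Of the 10 markers of preadipocytes and fibroblasts, 1 was upregulated (Dlk1). Of 10 macrophage markers, 9 were upregulated, and their sum was 234 to 824 CPM in CTL and 2304 to 7287 CPM in Nelfb-/- libraries, with the most in Nelfb-/- replicate 1, the lowest library of its group for Klf2. Macrophages express several KLFs. Of 8 melanocyte markers, 6 were upregulated, with a sum of 57.3 to 86.3 CPM in CTL and 105 to 221 CPM in Nelfb-/- libraries. Mitf, which did not pass, made up 82.4% to 85.1% of the sum in CTL, and without it the sum was 10.1 to 13.9 CPM in CTL and 83.2 to 125 CPM in Nelfb-/- libraries, while Tyr was at 0 in all CTL libraries. Endothelial cells, in which Klf2 is abundant, had 8 of 10 markers tested and 1, Emcn, upregulated, with a sum of 12.9 to 18.4 CPM in CTL and 19.3 to 31.2 CPM in Nelfb-/- libraries. Keratinocytes, which express Klf4 and Klf5, had 5 of 10 markers tested and 2 upregulated, with sums of 3.94 to 4.15 CPM and 10.2 to 21.3 CPM. Of 8 Schwann cell markers, 6 were tested, 3 were upregulated and 1 (Mbp) was downregulated, with sums of 175 to 350 CPM and 432 to 527 CPM. Sox10, 1 of the 3, is also among the melanocyte markers, and Pmp22, which did not pass and overlapped between the groups, made up 59.9% to 84.3% of the sum over the 6 libraries. Of 8 markers of smooth muscle, 1 (Des) was upregulated, with sums of 952 to 1334 CPM and 596 to 1531 CPM. The part of these cell types in the values of the KLFs was not tested.

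**Figure D4:**
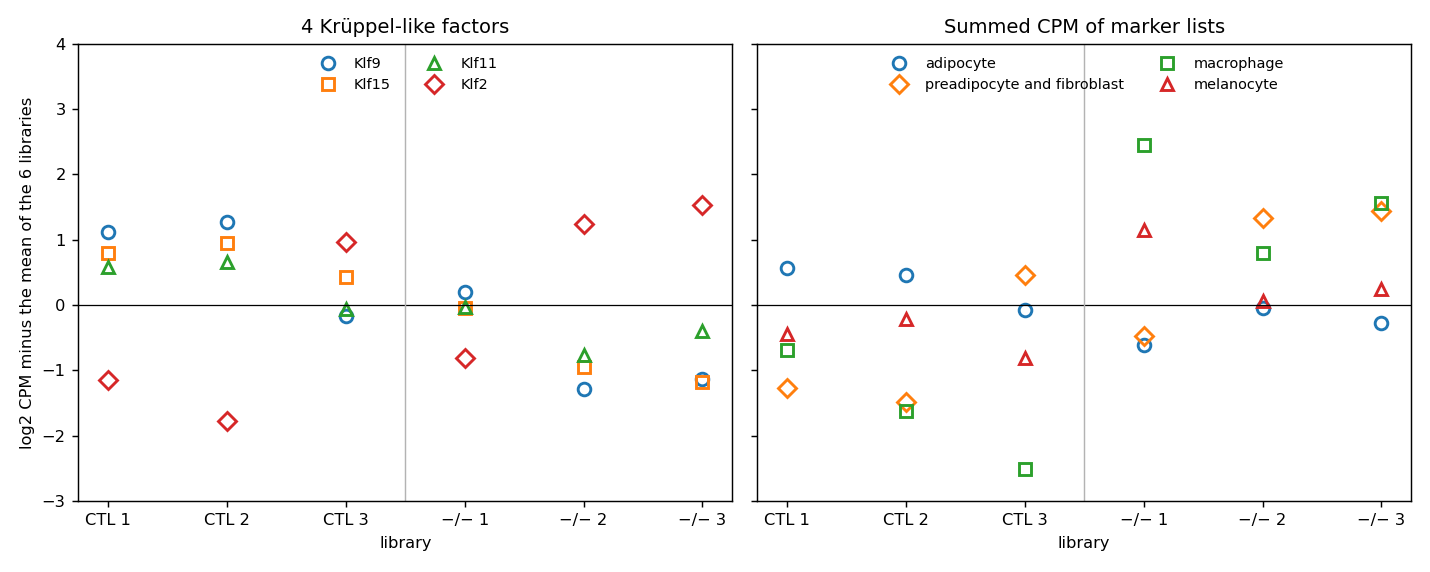
Log2 CPM minus the mean of the 6 libraries (y axis) for Klf9, Klf15, Klf11 and Klf2 (left) and for the summed CPM of 4 lists of marker genes (right), by library (x axis, CTL left of the vertical line and Nelfb-/- right of it). Klf2 and the preadipocyte and fibroblast sum are high in CTL replicate 3 and in Nelfb-/- replicates 2 and 3, and Klf9 is highest in CTL replicates 1 and 2.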

How the data were processed

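The authors deposited CPM values to which 0.0001 had been added, as each column without this offset sums to 1000000. Reads were aligned to mm10, and the submitters' processing notes name STAR 2.7 and Partek 9.0.20.0202. The paper's methods name DESeq2 for the alignment and state that genes under 10 reads were left out. The counting is not given in the sources used here. The depth was read from the steps of the low values, of which 69.9% to 72.6% were within 0.02 of a whole number of reads, so that no count-based test was run. CPM values were multiplied by the geometric mean depth (22.3 M reads, with M for 1000000), and 16252 genes whose mean reached 10 reads (0.448 CPM) entered a limma fit (3.58.1, under R 4.3.3) of log2(value + 1) with an abundance trend and Benjamini-Hochberg adjustment over all genes. The fit was tested on simulated data. A trimmed mean of M values was computed for 1 alternative. Exon lengths and positions come from GENCODE vM21 (GRCm38), in which all 10 members were found at the place given in the table. In all, 15 alternatives were planned, 1 was planned for the levels per length, and 2 were added after the data were seen.

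Genes named in the text are the 10 members, Nelfb, and genes of the lists of KLF relatives, partners, targets, glucocorticoid response, immediate early genes and cell type markers that passed the threshold or that stand beside a member by their role. Btg2, Fbxw7, Pparg, Cebpa, Cebpb, Adipoq, Fasn, genes that overlap a member and the most abundant markers were named after their values were seen. The members and lists were chosen with earlier results of these data known.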

Additional observations from a re-analysis of the deposited data

How the results depend on the processing

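Each library decided part of the result. When 1 library was left out in turn, between 426 and 2480 genes passed instead of 1824, between 0 and 3 KLFs were downregulated instead of 1, and 0 were upregulated. The 4 fits with 0 downregulated KLFs were those without CTL replicate 1, CTL replicate 2, Nelfb-/- replicate 2 or Nelfb-/- replicate 3. Without CTL replicate 3 and Nelfb-/- replicate 1 together, 4383 genes passed (27.1%), with 3 KLFs downregulated (Klf9, Klf11 and Klf15) and 1 upregulated (Klf2). The log2 fold change changed sign for 2 KLFs, since it lay between -0.32 and 0.11 for Klf6 and between -0.30 and 0.11 for Klf7 when each library was left out. With a pseudocount of 1 CPM and a mean of at least 10 CPM, 848 genes passed, and Klf15 was again the 1 downregulated KLF. Klf15 passed in 13 of 17 alternatives and Klf9 in 4 of 17. Of the genes set beside the KLFs, Ctbp1 lay between -0.019 and 0.24, Fkbp5 between -0.035 and 0.26 and Prodh between -0.23 and 0.049 (log2 fold change) when each library was left out, and Prodh was at 0.0044 without CTL replicate 3 and Nelfb-/- replicate 1. Of the 13 glucocorticoid response genes, 0 to 4 were downregulated over the fits without 1 library and 1 under either other scaling. The share of all genes downregulated in these fits is not given here, so that these counts have no background beside them. The cause of these shifts was not tested.

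Whether the replicate numbers pair the libraries is not given in the sources used here. The deviations of same-numbered libraries from their group means correlated at 0.52, -0.40 and 0.52 for numbers 1, 2 and 3. CTL replicate 2 correlated best with Nelfb-/- replicate 1. With 3 libraries per group, and CTL replicate 3 and Nelfb-/- replicate 1 standing apart, these correlations cannot decide the pairing. With the replicate number as a block, 2175 genes passed and 2 KLFs (Klf9 and Klf15) and 2 glucocorticoid response genes were downregulated, and Tsc22d3 had an adjusted p of 0.080 in limma. The 2175 genes include both directions, and the share of all genes downregulated in this fit is not given here. With the longest transcript in place of the union of exons, 8 of the 10 KLFs kept their place in the order of CTL levels and 5 of 10 in that of Nelfb-/- levels, in which Klf3, Klf15, Klf2, Klf5 and Klf11 changed place.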

Other observations

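Of 7 other KLFs, 4 were tested, and 0 passed in limma, with 0 at an unadjusted p of 0.05 (12.9% of all genes lower and 19.6% higher). Klf10, a gene of the TGF-β response, showed CTL levels of 25.2, 29.2 and 37.5 CPM and Nelfb-/- levels of 37.8, 38.8 and 43.6 CPM, with groups that did not overlap (log2 fold change 0.40; adjusted p in limma, 0.17). Of 9 SP genes, 6 were tested and 0 passed in limma, with 1 lower and 1 higher at this unadjusted p. Sp7 (osterix), a factor of the bone lineage, showed CTL levels of 0.0451, 0 and 0.816 CPM and Nelfb-/- levels of 1.14, 8.21 and 5.75 CPM (adjusted p in limma, 0.051). Sp7 lay close to the threshold and passed in 7 of 16 alternatives, among them a pseudocount of 10 reads (adjusted p in limma, 0.047) and the fit without CTL replicate 3 (adjusted p in limma, 0.014); its adjusted p ranged from 1.5e-04 to 0.17.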
